A study of Mus musculus with 6 samples.

Results

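The primary granule genes described here are Mpo, Elane, Prtn3, Ctsg, Prss57, Ctsc, Ms4a3 and Srgn, 8 of the 16539 genes in the deposited count table, chosen by name. All 8 were among the 12097 genes that passed the filter on low counts. RNA was sequenced from granulocyte-monocyte progenitors, the common precursors of neutrophils and monocytes, which were sorted by flow cytometry from bone marrow. The mice were wild type, and 3 days had passed since a myocardial infarction. Of the 6 libraries, 3 came from mice with sleep fragmentation (repeatedly interrupted sleep) and infarction, and 3 from control mice with infarction. Every mouse had an infarct, so no library shows these cells without one. The sources used here do not give strain, sex, age or the number of mice in each library. The p-values therefore set the group difference only against the variation among these libraries, which may be technical. The stated purpose was to look for what lies behind a greater proliferation and neutrophil output of the progenitors after sleep fragmentation.

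Primary (azurophil) granules are the first granules a neutrophil precursor builds, and their proteins are made at the progenitor and promyelocyte stages and then stored. Mpo encodes myeloperoxidase, a heme enzyme that makes hypochlorous acid from hydrogen peroxide and chloride. Elane (neutrophil elastase), Prtn3 (proteinase 3), Ctsg (cathepsin G) and Prss57 (neutrophil serine protease 4) are the neutrophil serine proteases. They are made as inactive precursors, and cathepsin C, the dipeptidyl peptidase encoded by Ctsc, trims them into active enzymes. Srgn encodes serglycin, the proteoglycan on whose sulfated chains granule proteins are packed. Ms4a3 encodes a membrane protein that marks granulocyte-monocyte progenitors.

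The promoters of the 4 members with the largest fitted differences between the groups are shown. Whether letters in the promoters bear on how the members varied across libraries was not tested. Each sequence runs from 250 bases before to 50 bases after the annotated start, 5′ to 3′ on the gene's own strand, and comes from RefSeq on build GRCm38.p6, whereas the counts were made on GRCm39. Capitals mark matches, on either strand, to the letters GAGGAA (PU.1 and other ETS factors), AACNG (MYB), TGTGGT (RUNX) and TTNNGNAA (C/EBP). The windows are chr11:87793534-87793833 on the plus strand for Mpo, chr10:79886062-79886361 on the plus strand for Elane, chr10:79879417-79879716 on the plus strand for Prtn3 and chr14:56102525-56102824 on the minus strand for Ctsg.
Mpo: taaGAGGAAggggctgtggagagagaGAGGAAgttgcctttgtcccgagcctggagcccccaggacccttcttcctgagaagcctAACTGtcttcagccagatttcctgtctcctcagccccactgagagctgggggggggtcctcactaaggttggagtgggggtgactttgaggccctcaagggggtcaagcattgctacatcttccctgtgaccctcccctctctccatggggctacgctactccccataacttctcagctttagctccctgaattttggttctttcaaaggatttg
Elane: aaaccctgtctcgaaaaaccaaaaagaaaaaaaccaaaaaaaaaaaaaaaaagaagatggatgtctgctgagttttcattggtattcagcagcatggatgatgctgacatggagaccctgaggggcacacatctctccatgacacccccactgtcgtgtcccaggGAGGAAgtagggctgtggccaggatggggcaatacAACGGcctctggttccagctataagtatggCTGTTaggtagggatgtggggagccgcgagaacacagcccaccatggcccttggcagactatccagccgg
Prtn3: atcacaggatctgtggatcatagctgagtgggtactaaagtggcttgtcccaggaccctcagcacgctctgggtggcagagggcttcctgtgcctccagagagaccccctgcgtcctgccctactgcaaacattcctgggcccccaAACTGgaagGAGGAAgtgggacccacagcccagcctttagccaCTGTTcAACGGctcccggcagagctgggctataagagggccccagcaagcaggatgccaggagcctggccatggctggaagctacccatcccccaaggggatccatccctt
Ctsg: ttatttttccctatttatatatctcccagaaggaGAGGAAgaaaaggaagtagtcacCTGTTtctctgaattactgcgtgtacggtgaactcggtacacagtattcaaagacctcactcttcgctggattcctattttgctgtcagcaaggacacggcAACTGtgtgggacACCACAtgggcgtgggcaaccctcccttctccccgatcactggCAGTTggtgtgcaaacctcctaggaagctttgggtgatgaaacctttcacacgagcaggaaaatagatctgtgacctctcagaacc
Elane and Prtn3 each held GAGGAA followed by AACGG, beginning 85 and 50 bases before the start in Elane and 95 and 55 bases before it in Prtn3. No match overlapped another in these 4 windows.

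Promoters were listed for 7 of the 8 members, Prss57 being the one without an entry, and the first window listed was used for Srgn. GAGGAA was found in 6 of the 7, against 28.3% of all 32851 promoter windows of this length. AACNG, a short word, was found in 6 of the 7 and in 80.3% of all windows. TTNNGNAA was found in 1 of the 7, Ms4a3, against 40.7% of all windows, and TGTGGT in 1, Ctsg, against 16.8%. The other window listed for Srgn held both TTNNGNAA and TGTGGT, so these 2 counts would each be higher by 1 with it. These are matches of letters and say nothing of whether a factor was bound.

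Total counts lay between 28971253 and 30702452 in the sleep-fragmented libraries and between 30297437 and 31665923 in the control libraries. Each library held between 14047 and 14265 genes with a read. Libraries did not sort by group: the smallest chi-square per gene among the 15 pairs of libraries, 14.0, was between sleep-fragmented replicate 2 and control replicate 3, while the pairs within the sleep-fragmented group had 66.9, 90.4 and 192.8. Sleep-fragmented replicate 2 and control replicate 1 had 25.1. Control replicate 2 was nearer to sleep-fragmented replicates 3 and 1 (45.5 and 61.7) than to control replicates 1 and 3 (62.7 and 76.1). No pair agreed within sampling noise. All 8 markers of granulocyte-monocyte progenitors had reads in every library, among them Kit (150.1 to 192.5 CPM after sleep fragmentation and 155.9 to 185.0 CPM in control) and Cd34 (27.5 to 56.2 CPM against 32.3 to 66.0 CPM). CPM is the count per 1e+06 counts after TMM scaling, which corrects for differences in library composition. The 8 progenitor markers summed to 1358 to 1573 CPM after sleep fragmentation and 1240 to 1457 CPM in control. Markers of other cells were present in both groups. Summed over the list, 6 of 6 mature neutrophil markers had 2266 to 4905 CPM after sleep fragmentation and 1001 to 2622 CPM in control, 6 of 6 eosinophil markers had 2768 to 3840 CPM against 2332 to 4059 CPM, and 6 of 6 basophil and mast cell markers had 1044 to 2288 CPM against 1142 to 2587 CPM. The mature neutrophil sum was above the progenitor sum in every library except control replicate 1, where they were 1001 and 1240 CPM. Such sums depend on the genes listed and do not give shares of cells. Monocyte and dendritic cell markers summed to 2233 to 2509 CPM after sleep fragmentation and 2208 to 2455 CPM in control. Erythroid and B cell lists summed to at most 21.8 CPM in each library. The T and NK cell list summed to 168.5 to 256.8 CPM against 244.1 to 260.2 CPM, nearly all of it Nkg7. Its T cell genes Cd3e and Cd3g were at 0 in some libraries.

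Every one of the 8 members had a lower fitted level after sleep fragmentation than in control, at 0.784 to 0.964 of it, and none of these differences passed the test. The median log2 fold change of the members was -0.21, beside -0.004 over all tested genes, of which 51.0% had a lower fitted level. edgeR's quasi-likelihood test, adjusted over all 12097 genes, called 0 of the 8 members and 0% of all tested genes (adjusted p = 0.99987 for each member). At an unadjusted p under 0.05 it took 0 members, beside 341 genes in all, 2.82%, of which those lower after sleep fragmentation were 0.661% of all tested. DESeq2 and limma-voom called 0 members too, each with Prtn3 alone at an unadjusted p under 0.05. DESeq2 took 0.719% of all genes as lower at that level, and limma-voom 0.628%. DESeq2 called 13 genes in all, 0.107% of those tested. For 2 of the 8 members, Prtn3 and Elane, every sleep-fragmented library was below every control library, while 3.84% of all tested genes were lower without overlap. In these bulk libraries, fewer cells with a transcript and less transcript per cell cannot be told apart.

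**Figure D1:**
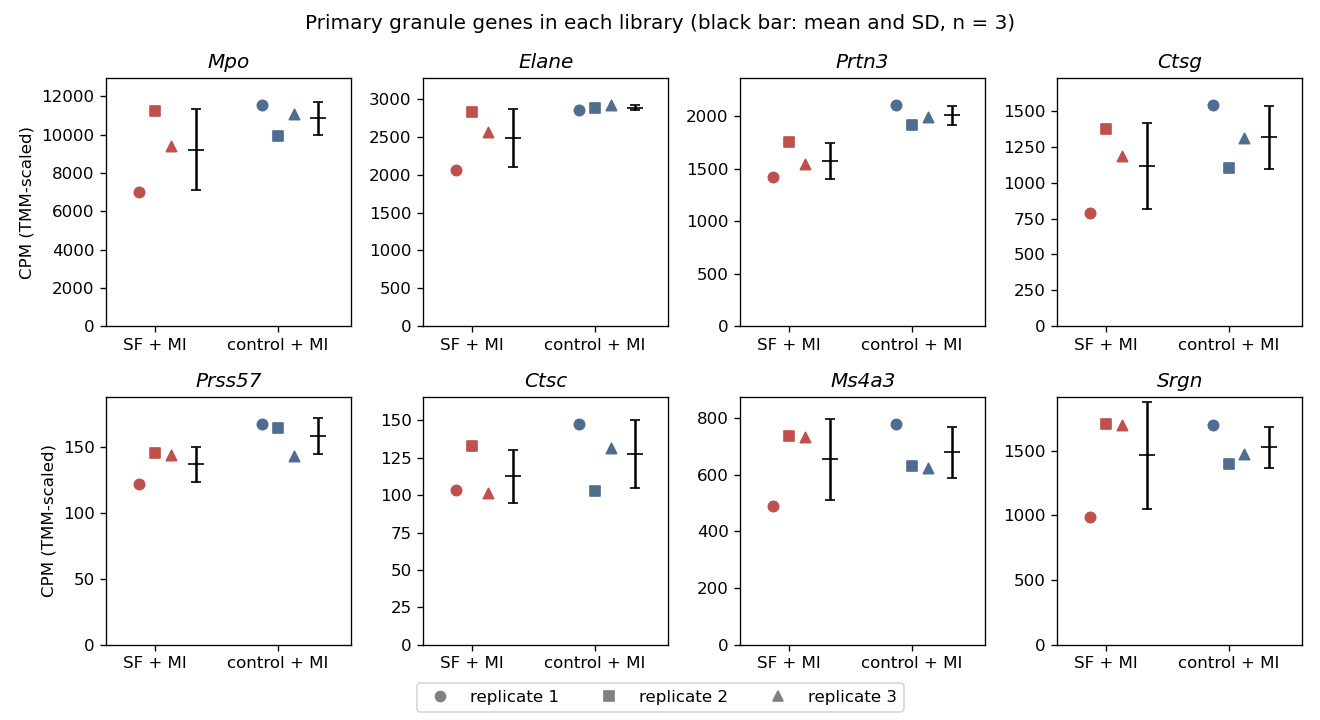
CPM of each member (vertical axis, from 0) in the 3 sleep-fragmented libraries (red) and the 3 control libraries (blue), with marker shapes for replicate numbers and black bars for the mean and SD of each group (n = 3). Prtn3 and Elane do not overlap between groups, and sleep-fragmented replicate 1 is the lowest library for 7 of the 8 genes.

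Mpo, the myeloperoxidase gene, took the most reads of the 8. Mpo (Entrez Gene 17523, chromosome 11) had 6998, 11228 and 9423 CPM in sleep-fragmented replicates 1 to 3, against 11554, 9919 and 11065 CPM in control replicates 1 to 3. Sleep-fragmented replicate 1 stood lowest, and replicate 2 of the same group lay above 2 of the 3 control libraries, so the groups overlapped. The group means were 9216 ± 2122 CPM after sleep fragmentation and 10846 ± 839.4 CPM in control (SD, n = 3 each), a log2 fold change of -0.23 (SE 0.24), or 0.850-fold with a 95% interval of 0.585 to 1.23. By CPM, which does not correct for length, Mpo ranked between the second and the sixth gene in every library. It made up 54.8% ± 1.35 of the summed CPM of the 8 members after sleep fragmentation and 55.5% ± 0.768 in control (SD, n = 3 each).

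Among the serine proteases, Prtn3 had the largest fold difference of the 8 members and Elane the smallest spread in control. Prtn3 (Entrez Gene 19152, chromosome 10) had 1420, 1752 and 1547 CPM in sleep-fragmented replicates 1 to 3, against 2108, 1921 and 1994 CPM in control replicates 1 to 3. Its highest sleep-fragmented library lay below its lowest control library. The log2 fold change was -0.35 (SE 0.16), 0.784-fold with a 95% interval of 0.614 to 1.001. Its unadjusted p was 0.051 by edgeR, 0.0074 by DESeq2 and 0.039 by limma-voom, with adjusted p = 0.99987, 0.742 and 0.99853. An exact permutation test gave p = 0.1 (2-sided), the smallest that 3 against 3 libraries allow.

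Elane (Entrez Gene 50701, chromosome 10), which lies next to Prtn3 in the RefSeq gene order, had 2067, 2832 and 2566 CPM in sleep-fragmented replicates 1 to 3. In control replicates 1 to 3 it had 2851, 2887 and 2924 CPM. The groups did not overlap, but sleep-fragmented replicate 2 was only slightly below control replicate 1. The coefficient of variation was 15.6% after sleep fragmentation and 1.26% in control (n = 3 each). For Elane the log2 fold change was -0.21 (SE 0.18), 0.862-fold with a 95% interval of 0.653 to 1.14. The ratio of Prtn3 to Elane was 0.636 ± 0.045 after sleep fragmentation and 0.695 ± 0.039 in control (SD, n = 3 each), and the groups overlapped.

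Ctsg (Entrez Gene 13035, chromosome 14), the protease with chymotrypsin-like specificity, had 786.9, 1376 and 1188 CPM in sleep-fragmented replicates 1 to 3, against 1543, 1104 and 1310 CPM in control replicates 1 to 3. Its groups overlapped widely, and its highest library held 1.96 times the CPM of its lowest, the widest range of the 8. Ctsg had a log2 fold change of -0.24 (SE 0.23), 0.847-fold with a 95% interval of 0.593 to 1.21. The ratio of Ctsg to Mpo was 0.120 ± 0.0071 after sleep fragmentation and 0.121 ± 0.011 in control (SD, n = 3 each).

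Prss57 (Entrez Gene 73106, chromosome 10), whose product cuts after arginine, was far less abundant. It had 121.5, 145.3 and 143.9 CPM in sleep-fragmented replicates 1 to 3 and 167.7, 164.6 and 143.0 CPM in control replicates 1 to 3. Control replicate 3 lay within the range of the sleep-fragmented libraries. The log2 fold change was -0.21 (SE 0.12), 0.864-fold with a 95% interval of 0.711 to 1.05. The 4 serine proteases together made up 31.9% ± 1.71 of the summed CPM of the members after sleep fragmentation and 32.6% ± 0.797 in control (SD, n = 3 each).

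Ctsc (Entrez Gene 13032, chromosome 7), the activating peptidase, had the fewest reads of the set. It had 103.5, 133.0 and 101.5 CPM in sleep-fragmented replicates 1 to 3, against 147.9, 103.0 and 131.7 CPM in control replicates 1 to 3. The lowest control library sat among the low sleep-fragmented ones. The log2 fold change was -0.18 (SE 0.17), 0.883-fold with a 95% interval of 0.681 to 1.15. Its smallest count in a library was 2752 reads, so its values were limited by the variation among replicates and not by counting.

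Srgn (Entrez Gene 19073, chromosome 10), the granule proteoglycan, had 984.0, 1709 and 1695 CPM in sleep-fragmented replicates 1 to 3, against 1699, 1398 and 1477 CPM in control replicates 1 to 3. Its highest and its lowest library were both sleep-fragmented. Its log2 fold change was -0.06 (SE 0.23), with a 95% interval of -0.57 to 0.45. Ms4a3 (Entrez Gene 170813, chromosome 19) had 489.5, 737.5 and 733.8 CPM in sleep-fragmented replicates 1 to 3, against 779.8, 628.9 and 624.8 CPM in control replicates 1 to 3. As with Srgn, sleep-fragmented replicates 2 and 3 lay above control replicates 2 and 3, and only sleep-fragmented replicate 1 was low. The log2 fold change of Ms4a3 was -0.05 (SE 0.19), with a 95% interval of -0.48 to 0.38.

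Levels of different genes were compared per kb of exon, using the merged exons of GENCODE M21 (build GRCm38). On this scale Mpo had 2692 ± 619.9 CPM per kb after sleep fragmentation and 3168 ± 245.1 in control, and Elane had 2529 ± 394.6 and 2934 ± 37.0 (SD, n = 3 each). Ctsg followed with 1081 ± 291.2 CPM per kb after sleep fragmentation and 1277 ± 213.0 in control, and Prtn3 with 908.3 ± 96.7 and 1159 ± 54.3. Neither Mpo and Elane nor Ctsg and Prtn3 differed by more than the larger SD of the pair in either group. Srgn had 666.1 ± 188.8 CPM per kb after sleep fragmentation and 694.4 ± 71.1 in control, and Ms4a3 had 346.9 ± 75.4 and 359.8 ± 46.9. Prss57 had 48.2 ± 4.69 CPM per kb after sleep fragmentation and 55.7 ± 4.74 in control, and Ctsc had 19.4 ± 3.04 and 22.0 ± 3.92. Exons of all isoforms were merged, so a gene with long minor isoforms is understated.

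The members varied together from library to library. Their summed CPM was 12970, 19912 and 17398 in sleep-fragmented replicates 1 to 3, against 20851, 18125 and 19669 in control replicates 1 to 3. The means were 16760 ± 3515 CPM after sleep fragmentation and 19549 ± 1367 CPM in control (SD, n = 3 each), and the groups overlapped. Sleep-fragmented replicate 1 was the lowest library for 7 members, all but Ctsc, and control replicate 1 was the highest for 6, all but Elane and Srgn. Over the 6 libraries, Pearson's r of log2 CPM was between 0.40 and 0.98 for the 28 pairs of members, with a median of 0.78. The closest pairs were Ms4a3 with Srgn (r = 0.98) and Mpo with Ctsg (r = 0.97), and the loosest was Prss57 with Ctsc (r = 0.40). All values of a library share its scaling factor, and these r are given as a description only.

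**Figure D2:**
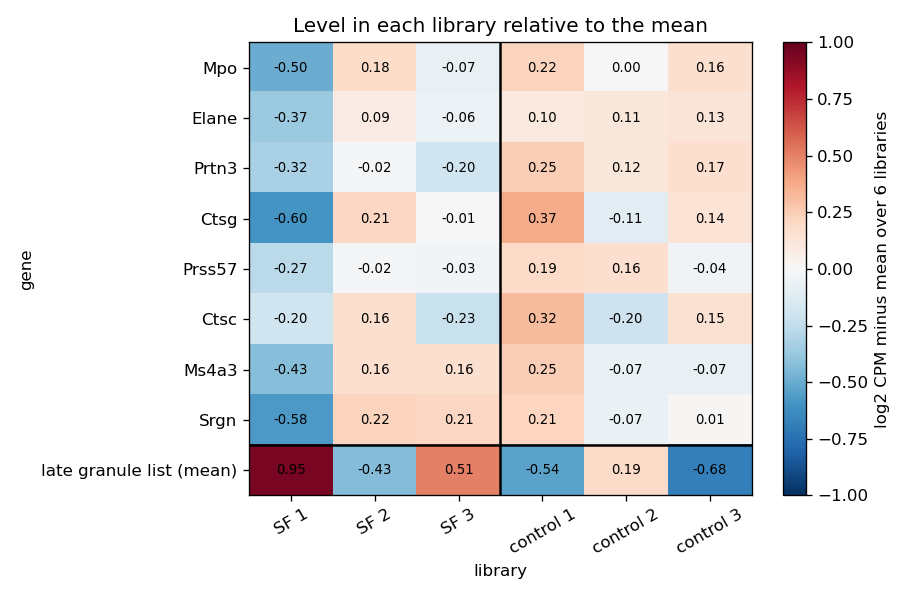
Log2 CPM of each member (rows) in each library (columns, sleep-fragmented left of the line, control right of it) after subtracting the gene's mean over the 6 libraries, with the mean of the 20 late granule genes in the bottom row. Sleep-fragmented replicate 1 is below the mean for all 8 members, between -0.60 and -0.20, and has the highest late granule value, 0.95.

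Leaving out single libraries moved all 8 fold changes. Without sleep-fragmented replicate 1 the median log2 fold change of the members was -0.08, and 6 of 8 had a lower fitted level. Mpo then had -0.07, Elane -0.10, Ctsg -0.04, Srgn 0.16 and Ms4a3 0.12, while Prtn3 had -0.28. Without sleep-fragmented replicate 2 the median was -0.32, with Mpo at -0.40 and Ctsg at -0.42. Without control replicate 1 it was -0.14, and Srgn (0.02) and Ms4a3 (0.06) had positive values. Without replicate 1 of both groups, which was tried only once the values were known, the median was -0.01 and 5 of 8 were lower. Prtn3 had -0.25, Elane -0.11 and Mpo -0.02 there. Across the 15 alternatives run, Prtn3, Elane and Prss57 had a lower fitted level in all 15, Mpo and Ctsc in 14, Ctsg in 13, and Srgn and Ms4a3 in 11. No member passed the adjusted threshold in any of them.

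**Figure D3:**
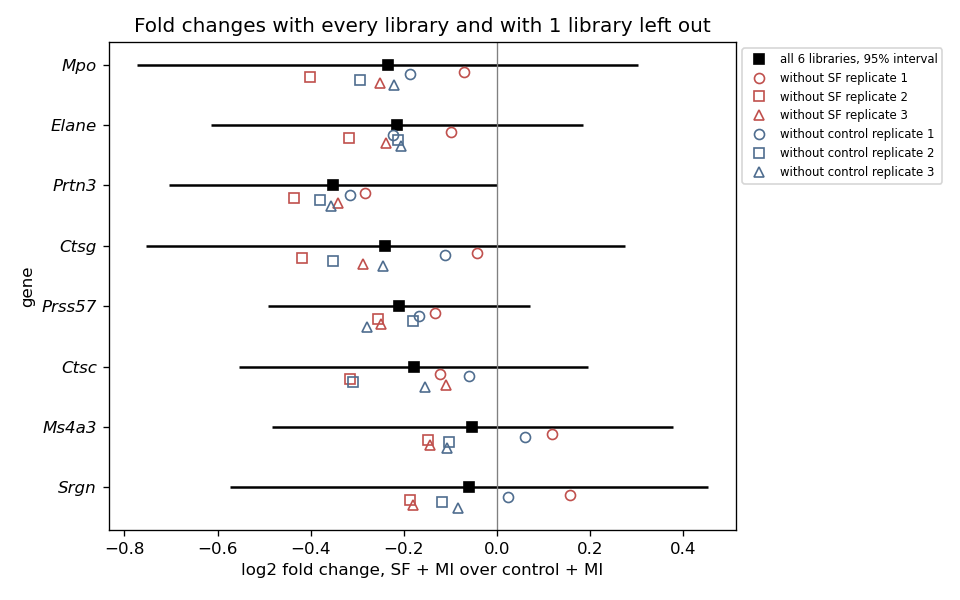
Log2 fold change, sleep fragmentation over control (horizontal axis), of each member with all 6 libraries (black squares, bars are 95% intervals) and with 1 library left out (open symbols, red for a sleep-fragmented and blue for a control library, shape by replicate number). Every interval includes 0, and the points without sleep-fragmented replicate 1 lie to the right of the full estimate.

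Genes of later granules and of neutrophil maturation ran the other way across the libraries. The 20 genes listed for secondary granules, tertiary granules and neutrophil maturation were written down knowing that such genes had been higher after sleep fragmentation in these data. Among the 20, Mmp8, Retnlg, Cxcr2 and Ly6g are also mature neutrophil markers summed above, so the list and those markers are not independent. Their fitted levels were higher after sleep fragmentation in all 20, but the groups overlapped for all 20. S100a9, S100a8, Ngp and Ltf, all on this list, ranked 1, 2, 3 and 5 among all tested genes by mean CPM. The median log2 fold change of the list was 0.67. It was 0.33 without sleep-fragmented replicate 1 and 0.99 without sleep-fragmented replicate 2. edgeR called 0 of them. Of the 20, 5 had an unadjusted p under 0.05, all of them higher, beside 2.16% of all tested genes. Mmp8, neutrophil collagenase, had 2223, 936.1 and 1430 CPM in sleep-fragmented replicates 1 to 3, against 353.7, 1067 and 528.0 CPM in control replicates 1 to 3. Retnlg had 1414 ± 433.5 CPM after sleep fragmentation and 661.3 ± 336.4 CPM in control, Cxcr2, a chemokine receptor, 317.5 ± 118.6 against 171.6 ± 63.2, and Olfm4, a specific granule glycoprotein, 376.1 ± 177.6 against 190.5 ± 86.7 (SD, n = 3 each). The mean centred log2 CPM of the list was 0.95, -0.43 and 0.51 in sleep-fragmented replicates 1 to 3 and -0.54, 0.19 and -0.68 in control replicates 1 to 3. The library with the lowest primary granule mean, -0.41 in sleep-fragmented replicate 1, was the one with the highest late granule mean. The 3 libraries with the highest primary granule means, control replicates 1 and 3 and sleep-fragmented replicate 2, were the 3 with the lowest late granule means.

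With the late granule mean as a covariate, a fit added after the data were seen, 3 of 8 members had a lower fitted level. Prtn3 then had a log2 fold change of -0.23 (SE 0.11, unadjusted p = 0.048 and adjusted p = 0.892 by edgeR), Prss57 -0.17 and Elane -0.08, and Mpo was at 0.004. The covariate and the members were measured in the same 6 libraries.

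**Figure D4:**
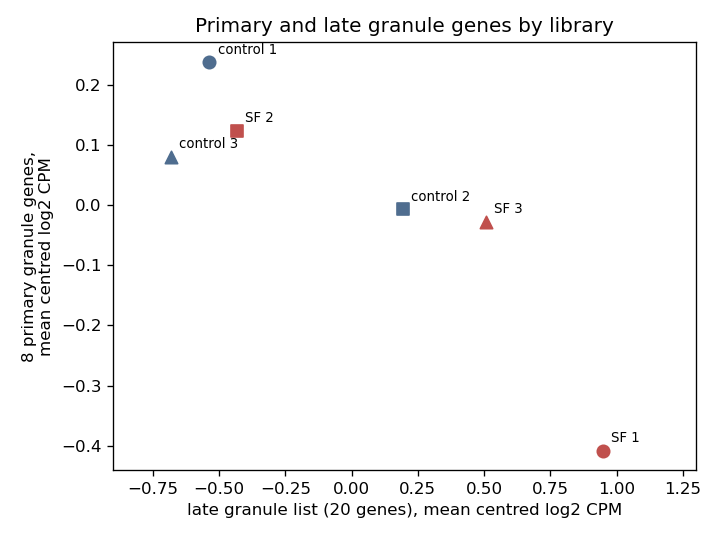
Mean centred log2 CPM of the 8 primary granule genes (vertical axis) against that of the 20 late granule genes (horizontal axis), 1 point per library, red for sleep-fragmented and blue for control. Sleep-fragmented replicate 1 lies at the lower right (0.95, -0.41), and sleep-fragmented replicate 2 (-0.43, 0.12) lies between control replicates 1 and 3.

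Other genes listed as partners of the 8, mostly for granule proteins, lysosomal enzymes and release factors, were split. Of 21 listed, 20 were tested, and 8 had lower and 12 higher fitted levels. The median log2 fold change was 0.04, and its sign turned when libraries were scaled by size only (-0.05), without control replicate 1 (-0.01), without control replicate 3 (-0.03) and with the late granule covariate (-0.06). edgeR called 0, and 1 gene, lower after sleep fragmentation, had an unadjusted p under 0.05. Of all tested genes, 0.661% were lower at that level. That gene was Dmkn, which encodes dermokine, at 24.4, 29.2 and 24.5 CPM in sleep-fragmented replicates 1 to 3. In control replicates 1 to 3 it had 45.5, 32.5 and 33.4 CPM. Its groups did not overlap, as in 3.84% of all tested genes on the lower side. Mgst1, a membrane-bound glutathione transferase, had 236.1 ± 68.7 CPM after sleep fragmentation and 161.8 ± 40.3 CPM in control. The lysosomal hydrolases Gaa and Gusb had log2 fold changes of -0.36 (SE 0.19) and -0.16 (SE 0.12).

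Genes that mature myeloperoxidase showed small differences. The list joined the enzymes of heme synthesis with chaperones of the endoplasmic reticulum, where the precursor folds and takes up heme, and with Furin, a protease of the Golgi. Of 14 tested genes 10 had lower fitted levels. The median log2 fold change was -0.09, and it was -0.04 without sleep-fragmented replicate 1, -0.15 without sleep-fragmented replicate 2 and -0.06 without control replicate 2. edgeR called 0, and 0 had an unadjusted p under 0.05. Calr, calreticulin, which binds the myeloperoxidase precursor, had 1117, 1923 and 1632 CPM in sleep-fragmented replicates 1 to 3 and 2155, 1549 and 1856 CPM in control replicates 1 to 3. Its lowest library was again sleep-fragmented replicate 1 and its highest control replicate 1. The chaperone Hsp90b1 had a log2 fold change of -0.20 (SE 0.18), Fech, which inserts iron into protoporphyrin to form heme, -0.23 (SE 0.15), and Furin 0.29 (SE 0.21).

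The enzymes that build and sulfate glycosaminoglycan chains such as those of serglycin were split, with 8 of 16 tested genes lower, 8 higher. The median was 0.02, and its sign turned when libraries were scaled by size only (-0.08), without replicate 1 of the sleep-fragmented group (-0.05) or the control group (-0.03) and without both (-0.02). edgeR called 0, with 0 at an unadjusted p under 0.05. Chst15, a chondroitin sulfotransferase, had a log2 fold change of 0.31 (SE 0.18) and Papss1, which makes the sulfate donor, -0.18 (SE 0.15). Xylt2, which starts the chain, had -0.28 (SE 0.27), and B3galt6, which extends its linker, 0.17 (SE 0.17).

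Genes listed as inhibitors of neutrophil serine proteases or of cathepsins had mostly higher fitted levels. Of 10 tested genes 9 were higher and 1 lower, and edgeR called 0. The median log2 fold change was 0.54. It was 0.24 without sleep-fragmented replicate 1, 0.23 without sleep-fragmented replicate 2, 0.34 without sleep-fragmented replicate 3 and 0.10 with the late granule covariate. At an unadjusted p under 0.05 there were 2 higher, Slpi and Serpina3f, beside 2.16% of all tested genes. Slpi, the secretory inhibitor of elastase and cathepsin G, had 215.6, 141.2 and 168.2 CPM in sleep-fragmented replicates 1 to 3, against 83.9, 138.2 and 116.1 CPM in control replicates 1 to 3. Its groups did not overlap, as in 2.92% of all tested genes on the higher side, and its log2 fold change was 0.63 (SE 0.21). Serpina3f was at 4.51 CPM in sleep-fragmented replicate 2 and between 0.189 and 0.446 CPM in the other 5 libraries, so its difference rests on 1 library. Its unadjusted p was 0.039 by edgeR and 0.19 by limma-voom. Serpina1a was at 0.152 to 1.08 CPM, with a log2 fold change of 0.84 (SE 0.79). A stricter filter, at least 1 CPM in 3 libraries, dropped both genes, and the list median was then 0.32. Wfdc21 had a log2 fold change of 0.62 (SE 0.34) and Serpinb6a 0.45 (SE 0.25). Serpinb1a, an intracellular inhibitor of elastase, proteinase 3 and cathepsin G, had a log2 fold change of 0.19 (SE 0.18) and was named after its value was seen. Slpi and Wfdc21 are also expressed by maturing neutrophils, whose markers were highest in sleep-fragmented replicate 1, and the part of such cells in these differences was not tested.

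Transcription factors known to act on primary granule genes showed no called difference. Of 13 tested, 8 were lower and 5 higher, and 0 had an unadjusted p under 0.05 by edgeR. The median was -0.03, and its sign turned without sleep-fragmented replicate 1 (0.001) and without control replicate 3 (0.003). Runx1 had 108.1 ± 11.3 CPM after sleep fragmentation and 123.5 ± 14.4 CPM in control, and Cebpa, C/EBP alpha, had 140.5 ± 28.4 and 154.8 ± 21.5 CPM (SD, n = 3 each). Cebpb had a log2 fold change of 0.18 (SE 0.15) and Irf8, which favours monocytes, -0.20 (SE 0.23).

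**Figure D5:**
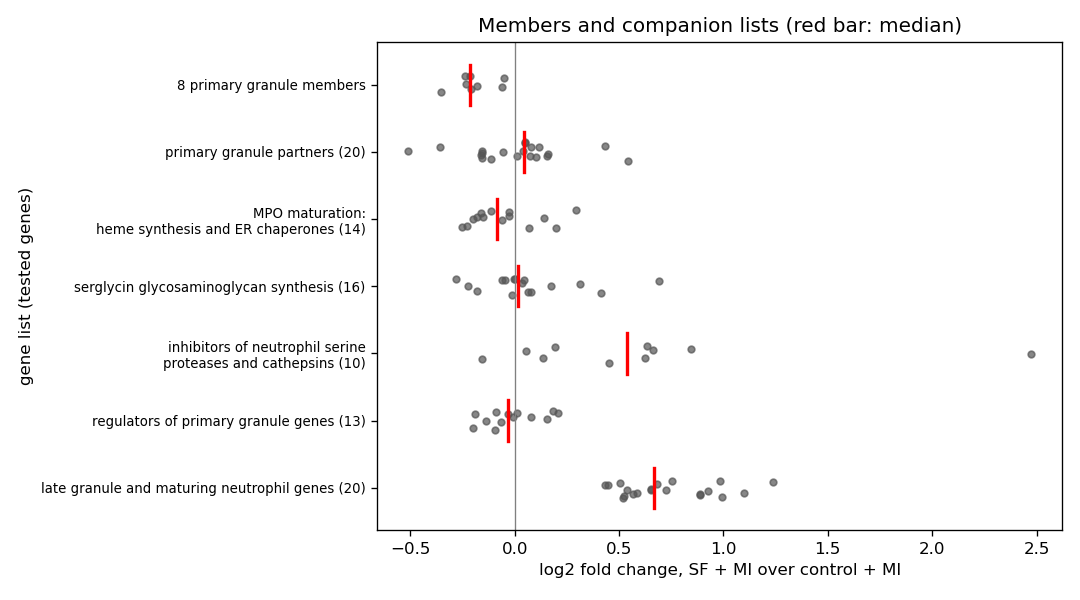
Log2 fold change, sleep fragmentation over control (horizontal axis), of each tested gene (points) in the 8 members and the 6 companion lists, with the number of tested genes in brackets and the median as a red bar. The members' median is -0.21, the late granule median 0.67 and the inhibitor median 0.54.

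Genes beside the members on the chromosome were read as a background for each locus, a choice made after the members' values were seen. Among the 3 protein-coding neighbours on each side in the RefSeq order of GRCm38.p6, 27 were tested. Lower fitted levels were found for 18 of them, the median log2 fold change was -0.11, and edgeR called 0. Plppr3, next to Prtn3 and with 159 bases of exon in common with it on the other strand in GENCODE M21, had 84.7, 121.4 and 110.7 CPM in sleep-fragmented replicates 1 to 3 and 144.0, 105.6 and 139.3 CPM in control replicates 1 to 3. Cfd, adipsin, a serine protease of complement on the other side of Elane, had only 106 reads over all 6 libraries. Its level was 0.275 ± 0.110 CPM after sleep fragmentation and 0.850 ± 0.428 CPM in control (SD, n = 3 each), and its log2 fold change was -1.61 (SE 0.64). Cfd and Tmem135, near Ctsc, were lower without overlap, as were 3.84% of all tested genes. Supt4a, near Mpo, was higher without overlap, as were 2.92%. Cfd was the 1 neighbour of the 27 tested with an unadjusted p under 0.05, beside 2.82% of all tested genes. Its adjusted p by edgeR's quasi-likelihood test was 0.99987. Mcpt8, a basophil protease beside Ctsg, had 276.5, 641.6 and 501.9 CPM in sleep-fragmented replicates 1 to 3 and 390.6, 301.8 and 689.9 CPM in control replicates 1 to 3, so its lowest library was also sleep-fragmented replicate 1. Mpo shares 512 bases of exon with the antisense gene Gm11505, and Prss57 shares 1157 bases with Fstl3 on the other strand. The sources used here do not give the strand setting of the counting, so reads in these stretches cannot be assigned to 1 gene with certainty.

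The genes most like the members over the 6 libraries were sought by Pearson's r with the members' mean centred log2 CPM among 7060 other genes with a mean of at least 20 CPM. Among the highest were Taf9, Slc16a10, Hsp90b1, Mrpl58, Myc, Igfbp4, Tm7sf3, Ptcd3 and Cops4, with r between 0.990 and 0.997. Myc, a growth-promoting transcription factor, had 61.9, 102.3 and 85.3 CPM in sleep-fragmented replicates 1 to 3 and 113.6, 86.9 and 100.8 CPM in control replicates 1 to 3, the same order of libraries at both ends as Mpo. The 5 lowest were Rnf25, Helz2, Foxj2, Ppp1r12c and Notch2, with r between -0.997 and -0.994. Of the 7060 genes, 396 (5.61%) had r above 0.9 and 624 had r below -0.9. These r rest on 6 points that share depth scaling and are a description only.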

How the data were processed

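The authors deposited unnormalized read counts per gene, 1 column per library. The submitters' processing notes name HISAT2, HTSeq, fastp and build GRCm39; the sources used here do not give versions, settings or annotation. Polyadenylated RNA was sequenced, per the labels. Groups and replicate numbers came from the sample titles. The fit used edgeR 4.0.16 (R 4.3.3): filterByExpr (minimum count 10, minimum total 15), TMM scaling, robust dispersions and the quasi-likelihood test, adjusted by Benjamini-Hochberg over 12097 genes at a threshold of 0.05. The SE of a fold change and its 95% interval were derived from that test. DESeq2 1.42.0 and limma-voom (limma 3.58.1) were alternatives, with other scalings and filters, a replicate block and each library left out. Centred values used log2 CPM with a prior count of 2. The methods were tested on simulated data in which genes varied independently and the planted changes were larger than any fold change of a member. That test therefore does not cover changes as small as those of the members. The members and lists were chosen with earlier results of these data known, and the rule for named genes took the members, the 4 of each list with the smallest p and those most like the members. Serpinb1a, Serpina1a, S100a9, S100a8, Ngp and Ltf fall outside it, as do the neighbours Plppr3, Cfd, Mcpt8, Tmem135 and Supt4a. All of these were named after their values were seen. Kit, Cd34, Ly6g, Cd3e, Cd3g and Nkg7 are named as markers. One gene that this rule names is not reported here. No protein comparison was made, as no protein sequences were used here. Depth was alike, between 28971253 and 31665923 counts per library, so precision was limited by the number of libraries.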

Additional observations from a re-analysis of the deposited data

How the results depend on the processing

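edgeR called 0 members and 0 genes in all under its alternatives (other scaling, other filters, the replicate block, each library left out, and both added fits). DESeq2 called 13 genes, none of them a member, and limma-voom called 0. By edgeR, 341 of 12097 genes had an unadjusted p under 0.05 with every library. Without sleep-fragmented replicate 2 there were 1330 of 12284, with Prtn3 the 1 member among them. Without control replicate 2 there were 761 of 12323, with 0 members. Leaving out any other library gave between 155 and 273 genes. Without 1 library at a time, log2 fold changes lay between -0.40 and -0.07 for Mpo, -0.32 and -0.10 for Elane, -0.44 and -0.28 for Prtn3, -0.42 and -0.04 for Ctsg, -0.28 and -0.13 for Prss57, -0.32 and -0.06 for Ctsc, -0.15 and 0.12 for Ms4a3, and -0.19 and 0.16 for Srgn, the signs of Ms4a3 and Srgn turning without sleep-fragmented replicate 1 or control replicate 1. The median of the inhibitor list lay between 0.23 and 0.51 in these fits. It was 0.32 with a stricter filter, which dropped Serpina3f and Serpina1a. Scaled by library size only, which shifted all genes by a median of -0.11, list medians were -0.049 for primary granule partners, -0.19 for myeloperoxidase maturation and -0.12 for regulators, and Prtn3 had an unadjusted p of 0.038. Without replicate 1 of both groups, 5 members were lower, Ctsg, Ms4a3 and Srgn had log2 fold changes of 0.087, 0.23 and 0.24, and list medians were 0.018 for myeloperoxidase maturation and 0.26 for inhibitors. With the late granule covariate, 3 members were lower and their median was 0.034. Mpo, Ctsg, Ctsc, Ms4a3 and Srgn had 0.0042, 0.071, 0.063, 0.13 and 0.18, and the medians of partners, inhibitors and late granule genes were -0.059, 0.10 and -0.054. The last is near 0 by construction, since the covariate is the mean of those genes. Apart from this and the genes dropped by the stricter filter, the causes of the shifts were not tested. With the replicate block the members' median was -0.22, Prtn3 had -0.36, and 169 genes had an unadjusted p under 0.05, against 341 without the block. Deviations from the group mean had correlations of -0.25, -0.37 and -0.01 between same-numbered libraries. Between libraries of unlike number they lay between -0.24 and 0.41. With 3 libraries behind each mean, these values cannot decide whether the numbers pair the libraries. Depth did not limit the members: the fewest reads of a member in a library were 2752.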
